A study of Mus musculus with 9 samples.

Results

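Hdac1 occupancy was described in haemogenic endothelium grown in culture from 3 mouse ES cell lines, which the labels name Bry, Hd1_loxlox and Hd2lox. The libraries were those precipitated with an Hdac1 antibody, 1 per line, so 3 of the 9 libraries of the series, and each had a peak list. All cells were of strain C57BL/6 and untreated. Bry cells were at passages 16 to 19 and cells of the other lines at passages 25 to 30, so line and passage cannot be told apart for Bry. The labels describe the alleles of none of the lines. Input libraries and Hdac2 lists were not used here. No library from cells lacking Hdac1 was at hand, so the specificity of the antibody was not checked. With 1 library per line the spread between lines includes technical spread, and 2 lines against 1 cannot give an exact permutation p below 0.333, so differences between lines are descriptions.

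Hdac1 is a class I histone deacetylase, an enzyme that removes acetyl groups from histone tails. It does not recognise DNA sequence by itself and is brought to chromatin in the Sin3, NuRD and CoREST complexes by transcription factors, often at active promoters rich in CpG. Haemogenic endothelium is the endothelial tissue from which blood cells emerge during development. Runx1 drives that step together with Gfi1 and Gfi1b, and TGF-beta signalling, named in the title of the series, acts on endothelial identity. A peak marks where Hdac1 was found and does not measure expression, so peaks at marker genes are no check of the cell type.

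The lists differed at promoters rich in CpG and at promoters with an ETS core, and 6 promoters are shown. They were chosen as examples, so their patterns and letters are no result. At the Runx1 starts the lists did not differ. Each is the 250 bases before an annotated start, from RefSeq on GRCm38.p6, the assembly also named mm10, written 5′ to 3′ on the strand of the gene. Runx1 has an upstream start with few CpG (chr16:92826075-92826324, minus strand) and a downstream start with many (chr16:92697330-92697579, minus strand). The downstream start carried a peak in all 3 lists and the upstream start in none. Hes5 (chr4:154960673-154960922, plus strand), a repressor under Notch control, carried a peak only in Hd2lox. Capitals mark CpG in these 3. Orc1 (chr4:108579204-108579453, plus strand), a subunit of the origin recognition complex, Rfc3 (chr5:151651209-151651458, minus strand), a subunit of the sliding-clamp loader, and Psma6 (chr12:55398575-55398824, plus strand), a proteasome subunit, carried a peak in Bry and Hd1_loxlox and not in Hd2lox. In these 3 the capitals mark CCGGAAG, the core letters bound by many ETS family factors, searched on both strands.
Runx1 upstream start: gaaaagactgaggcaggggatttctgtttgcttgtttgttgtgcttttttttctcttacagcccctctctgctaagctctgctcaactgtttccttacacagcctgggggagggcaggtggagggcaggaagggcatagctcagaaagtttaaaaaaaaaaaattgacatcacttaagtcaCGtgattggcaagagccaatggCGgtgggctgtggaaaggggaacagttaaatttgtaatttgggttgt
Runx1 downstream start: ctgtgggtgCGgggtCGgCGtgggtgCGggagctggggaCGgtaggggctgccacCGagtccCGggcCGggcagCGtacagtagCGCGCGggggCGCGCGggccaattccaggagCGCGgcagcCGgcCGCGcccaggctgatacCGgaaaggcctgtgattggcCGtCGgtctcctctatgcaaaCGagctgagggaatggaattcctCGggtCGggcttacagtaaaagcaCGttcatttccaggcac
Hes5: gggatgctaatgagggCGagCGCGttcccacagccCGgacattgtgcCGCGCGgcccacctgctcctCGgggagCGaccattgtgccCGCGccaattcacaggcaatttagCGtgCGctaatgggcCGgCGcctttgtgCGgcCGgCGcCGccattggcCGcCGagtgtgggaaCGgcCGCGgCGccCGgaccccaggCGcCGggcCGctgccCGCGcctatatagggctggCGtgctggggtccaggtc
Orc1: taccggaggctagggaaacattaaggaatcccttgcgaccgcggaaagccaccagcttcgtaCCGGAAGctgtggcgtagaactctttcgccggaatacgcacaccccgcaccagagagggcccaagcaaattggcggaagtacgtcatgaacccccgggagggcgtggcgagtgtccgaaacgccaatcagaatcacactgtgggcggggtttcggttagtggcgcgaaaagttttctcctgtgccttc
Rfc3: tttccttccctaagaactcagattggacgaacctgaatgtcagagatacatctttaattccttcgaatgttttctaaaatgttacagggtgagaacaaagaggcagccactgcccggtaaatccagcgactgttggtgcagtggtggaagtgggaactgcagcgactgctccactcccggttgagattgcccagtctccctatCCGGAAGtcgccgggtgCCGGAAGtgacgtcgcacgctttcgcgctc
Psma6: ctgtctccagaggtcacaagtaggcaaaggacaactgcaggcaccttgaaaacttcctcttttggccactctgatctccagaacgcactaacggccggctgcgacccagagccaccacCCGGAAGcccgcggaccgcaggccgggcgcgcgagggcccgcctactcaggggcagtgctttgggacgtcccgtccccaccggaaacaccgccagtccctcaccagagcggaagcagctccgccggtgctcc

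The 250 bases shown hold 2 CpG at the upstream Runx1 start, 27 at the downstream one and 32 at Hes5. The CCGGAAG letters stand once in the Orc1 and Psma6 stretches and 2 times in that of Rfc3.

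The Bry list held 7671 peaks, the Hd1_loxlox list 7490 and the Hd2lox list 7519 (mean 7560 ± 97.2, SD, n = 3 lines). Median peak width was 1375, 1475 and 1445 bp in the same order (mean 1432 ± 51.3 bp, SD, n = 3). The widest peak measured 6359, 10123 and 5378 bp, and the lists covered 11.6, 12.1 and 11.6 Mb. In size and number the 3 lists were thus near each other. No read count, height or score accompanies a peak, so the depth of each library is unknown and a gene without a peak may lie just below the authors' threshold. Intervals below are 95% Wilson intervals over peaks and cover counting error only.

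Merging peaks that overlapped by 1 bp or more gave 12575 regions. Of these 3213 (25.6%) were in all 3 lists and 2325 in Bry and Hd1_loxlox without Hd2lox. Bry and Hd2lox alone shared 501 regions and Hd1_loxlox and Hd2lox alone shared 700. Regions of a single list numbered 1553 for Bry, 1203 for Hd1_loxlox and 3080 for Hd2lox. The Bry and Hd1_loxlox lists therefore resembled each other more than either resembled Hd2lox, with Jaccard indices over regions of 0.583 for Bry with Hd1_loxlox, 0.327 for Bry with Hd2lox and 0.355 for Hd1_loxlox with Hd2lox. Seen from each list, 73.1% of Bry peaks were overlapped in Hd1_loxlox and 48.8% in Hd2lox. Of Hd1_loxlox peaks 74.6% were overlapped in Bry and 52.5% in Hd2lox. Of Hd2lox peaks 49.6% were overlapped in Bry and 52.3% in Hd1_loxlox.

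**Figure D1:**
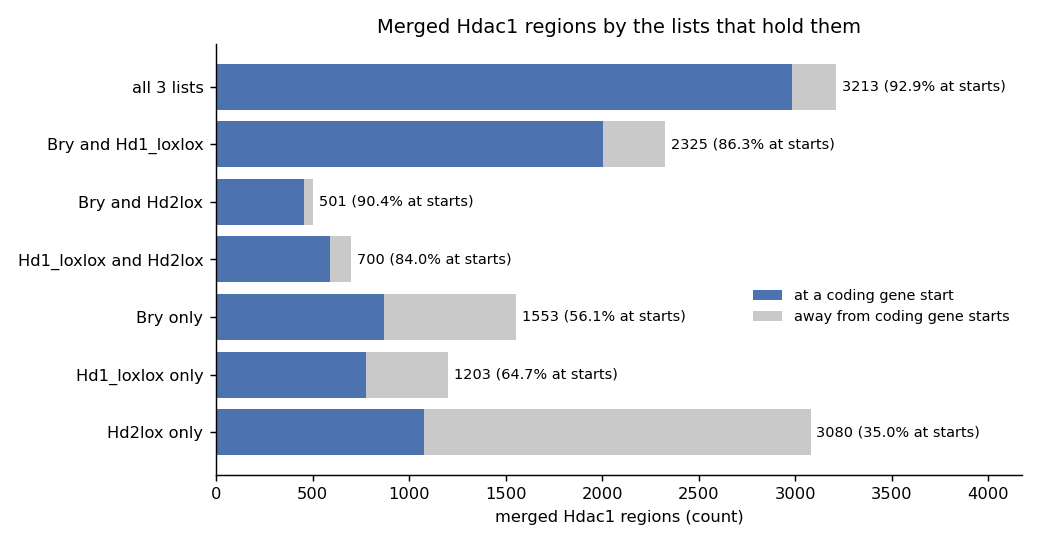
Merged Hdac1 regions (count, x axis) by the lists that hold them (y axis), split into regions at a coding gene start (blue) and away from one (grey). Regions of all 3 lists were at starts in 92.9% of cases and regions of Hd2lox alone in 35.0%.

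A peak was counted at a start when it reached within 1000 bp of the annotated start of a protein-coding gene. That held for 82.6% of Bry peaks (81.7 to 83.4%), 85.0% of Hd1_loxlox peaks (84.2 to 85.8%) and 67.6% of Hd2lox peaks (66.6 to 68.7%), a mean of 78.4 ± 9.40% (SD, n = 3 lines). Peaks inside genes but away from starts made up 9.97%, 8.88% and 17.5% of the Bry, Hd1_loxlox and Hd2lox lists, and peaks outside coding genes 7.44%, 6.13% and 14.8%. More than 50 kb from the nearest start of known strand lay 12.5% of Bry, 12.2% of Hd1_loxlox and 23.0% of Hd2lox peaks. The 4395 coding genes without such a start were left out of this distance, so a peak counted at their outer ends could also count as far. Peaks of chromosome 18, which had no start of known strand, were not counted as far. Near starts of known strand the peak centres sat on the gene side, at a median of 118 bp into the gene in Bry, 166 bp in Hd1_loxlox and 177 bp in Hd2lox. Of the 3080 regions of Hd2lox alone, 2002 were away from starts.

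The extra distal peaks of Hd2lox stood at the end of its list. Rows are not in genomic order: runs sorted by chromosome and start follow one another, 158 runs for Bry, 179 for Hd1_loxlox and 862 for Hd2lox, and the value that sets this order is not given in the sources used here. Peaks near the top of each list were wider, with a Spearman rho between place and width of -0.787 in Bry, -0.790 in Hd1_loxlox and -0.327 in Hd2lox, across peaks of 1 library each. In the first 25% of the lists 91.2% of Bry, 89.3% of Hd1_loxlox and 90.2% of Hd2lox peaks were at starts. In the last 25% these shares were 70.3%, 77.5% and 20.7%. Of the 1879 peaks in the last 25% of Hd2lox, 1635 overlapped no peak of the other lists and 1456 of those were away from starts. In the first 25% of Hd2lox 81.2% of peaks were overlapped in Bry and 86.2% in Hd1_loxlox, and in the last 25% these were 10.7% and 10.9%. Over the first 50% of each list the share at starts was 89.4% in Bry, 89.2% in Hd1_loxlox and 88.9% in Hd2lox, so the difference in position between the lines was not seen there. The greater likeness of Bry and Hd1_loxlox was still seen in the first 50%, with Jaccard indices of 0.484 for that pair against 0.312 for Bry with Hd2lox and 0.317 for Hd1_loxlox with Hd2lox. With the lists split by width in place of order, the difference in position remained, as in the wider 50% of each list the share at starts in Hd2lox minus the mean of the others was -19.8 percentage points. The split by order was chosen after the lists were seen, and what the order stands for was not tested.

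**Figure D2:**
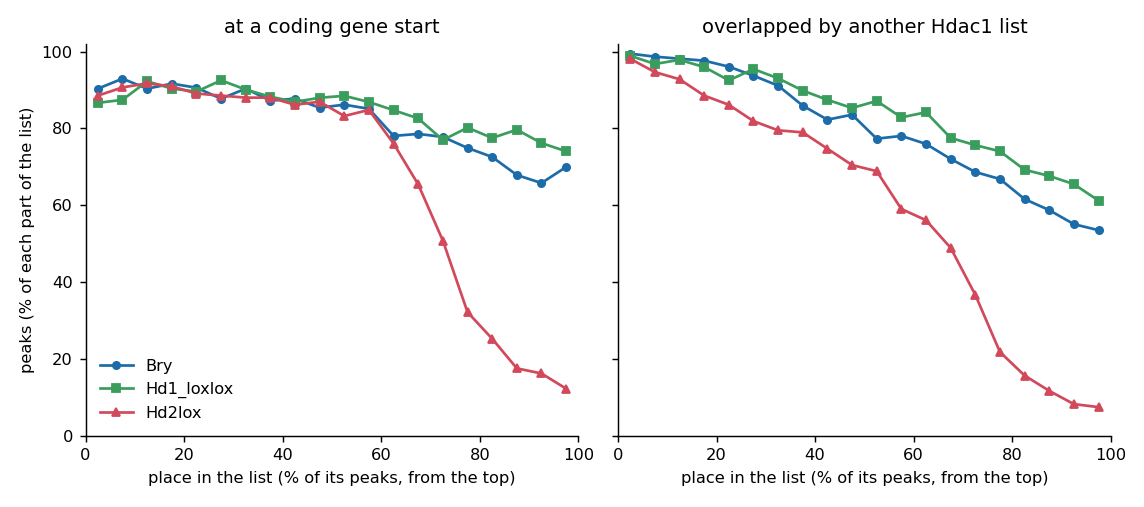
Share of peaks at a coding gene start (left) and overlapped by either other Hdac1 list (right), both in percent, in 20 equal parts of each list from its top (x axis, percent of peaks). The 3 lines run together at starts through the upper part of the lists, and Hd2lox falls away near the end, to 20.7% over its last 25%.

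Where the 3 lists shared a region, widths were related but not equal. In the 3122 regions with 1 peak in each list the Spearman rho of widths was 0.507 for Bry with Hd1_loxlox, 0.272 for Bry with Hd2lox and 0.330 for Hd1_loxlox with Hd2lox, across regions that share libraries. Over all 3213 shared regions, with the peaks of a list in a region summed, median widths were 1589 bp in Bry, 1657 bp in Hd1_loxlox and 1537 bp in Hd2lox. In the 3122 regions centres lay a median of 153 bp apart between Bry and Hd1_loxlox and 174 bp between Bry and Hd2lox. Wide peaks recurred more often, as 67.1% of the widest 25% of Bry peaks and 33.2% of the narrowest 25% were overlapped in Hd2lox.

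Of 21887 protein-coding genes, the Bry list marked the start of 7087 (32.4%), the Hd1_loxlox list 7073 (32.3%) and the Hd2lox list 5410 (24.7%). These shares are the background for every gene group below that is counted over whole lists. Over the first 50% of each list the shares of all coding genes were 18.3% in Bry, 17.5% in Hd1_loxlox and 16.4% in Hd2lox. Counts over the first 50% are to be set against these. In all 3 lists were 3277 genes (15.0%), in Bry and Hd1_loxlox without Hd2lox 2383 (10.9%), in Hd2lox alone 1050 (4.80%) and in Bry alone 958 (4.38%). Of 37 gene lists, Hd2lox had the lowest share of members of the 3 lines in 26 and the highest in 5. These directions are descriptions of 3 libraries.

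**Figure D3:**
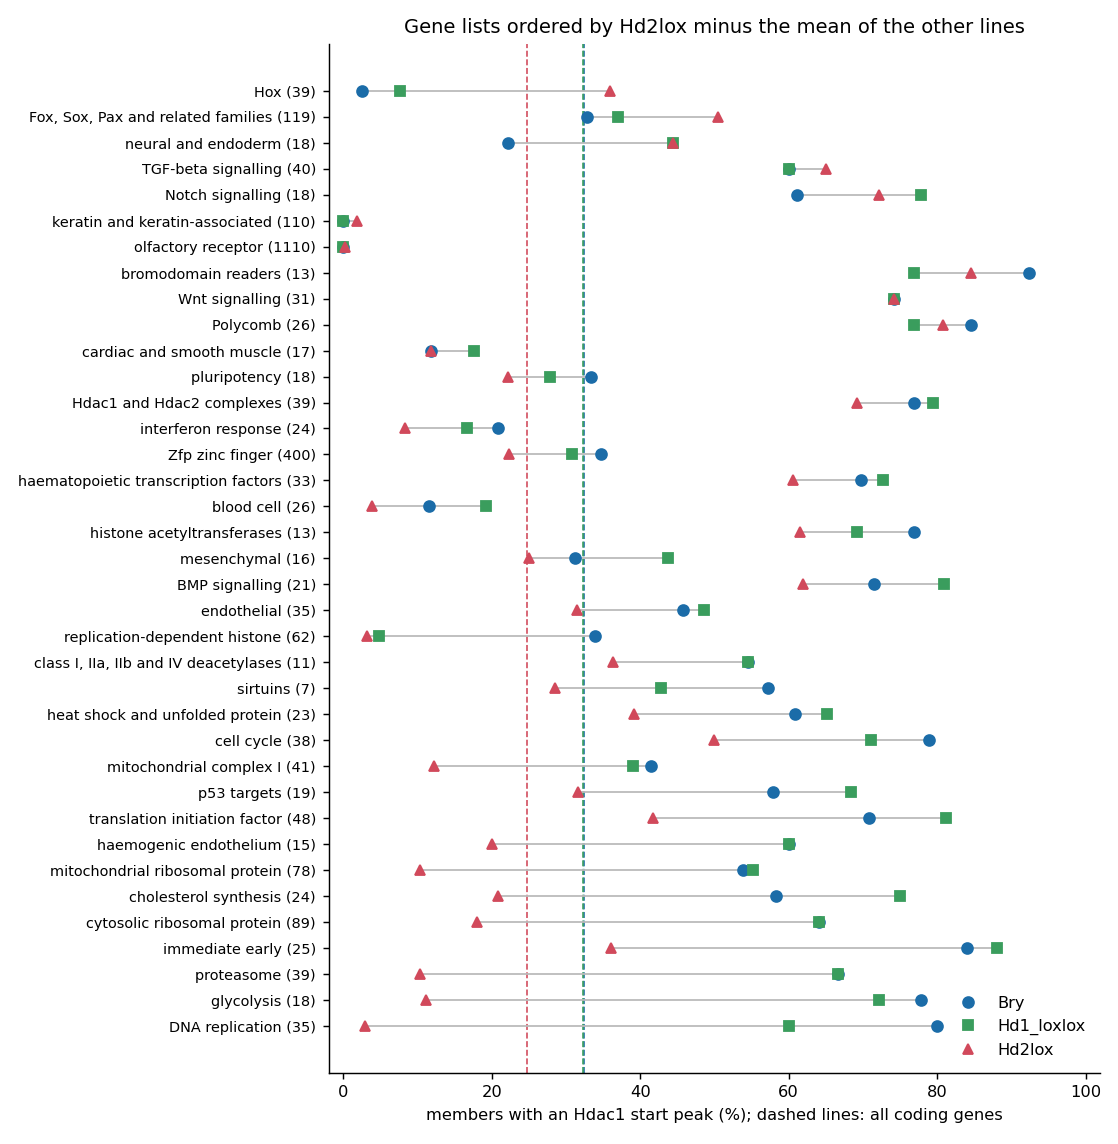
Members of each gene list with an Hdac1 start peak (percent, x axis) in each line, with list sizes in parentheses and dashed lines at the shares of all coding genes (32.4%, 32.3% and 24.7%, the first pair nearly on top of each other). Lists are ordered by Hd2lox minus the mean of the other lines, from Hox at the top to DNA replication at the bottom.

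Genes of haemogenic endothelium differed between the lines. Of 15 such genes, the Bry and Hd1_loxlox lists each marked the start of 9 (60%) and the Hd2lox list that of 3 (20%). The Hd2lox share was near its 24.7% of all coding genes, whereas the others were above their 32.4% and 32.3%. Over the first 50% of each list the counts were 6, 9 and 0. Runx1, the transcription factor required for the endothelial to blood step, was in all 3 lists at its downstream start. Its widest start peak spanned 3395 bp in Bry (chr16:92694261-92697655), 4210 bp in Hd1_loxlox (chr16:92696208-92700417) and 1107 bp in Hd2lox (chr16:92697043-92698149). The Hd2lox peak was the narrowest and stood 70.5% of the way down its list, against 3.39% and 1.15% for the others. Tal1, which partners Runx1 in the blood programme, was also in all 3 lists, with widest start peaks of 2146, 1913 and 1532 bp. The 1913 bp peak of Hd1_loxlox (chr4:115058064-115059976) did not overlap the Hd2lox peak (chr4:115056202-115057733). A narrower Hd1_loxlox start peak of 1280 bp (chr4:115056558-115057837) did. Each line had an additional peak inside Tal1. Sox17, an endothelial factor with no annotated start in the reference, had a peak near an outer end in each list but at no shared place. The Bry peak (chr1:4496045-4497086) and the Hd2lox peak (chr1:4491245-4492832) lay at opposite ends of the gene, and Hd1_loxlox had a peak at both ends. Of the 3277 genes in all 3 lists, 25 had no region common to the lists at a start or outer end.

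Gfi1, Kit, Kdr, Fli1 and Lyl1 had start peaks in Bry and Hd1_loxlox and none in Hd2lox. Gfi1, a repressor that recruits Lsd1 and CoREST, had start peaks of 1622 bp in Bry and 1838 bp in Hd1_loxlox. A separate peak inside Gfi1 was in all 3 lists at nearly 1 position, from 107721126 to 107722315 in Bry, 107721093 to 107722355 in Hd1_loxlox and 107721048 to 107722294 in Hd2lox on chromosome 5. Kit, the stem cell factor receptor, had start peaks of 1977 and 2148 bp, and Fli1, an ETS factor of endothelium and blood, had peaks of 3900 and 3642 bp. Kdr, the main VEGF receptor, had peaks of 1446 and 2708 bp. Lmo2, a bridging partner of Tal1, had no start peak but a peak inside the gene in all 3 lists, of 1889, 1806 and 1565 bp. Gfi1b, Cdh5, Tek and Erg had no start peak in any list. Inside Erg, Bry and Hd1_loxlox had overlapping peaks of 2168 and 3014 bp, and Hd2lox had a peak of 1744 bp at another place.

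Of 33 haematopoietic transcription factors, 23, 24 and 20 had a start peak in Bry, Hd1_loxlox and Hd2lox, and 16 were in all 3 lists, among them Runx1, Cbfb, Gata2, Myb, Etv6 and Cebpa. Ikzf1 and Bcl11a were in Hd1_loxlox and Hd2lox, and Runx3 and Mecom in Hd2lox alone. Gata1 and Spi1, drivers of the red and myeloid lineages, had none. Of 35 endothelial genes 16, 17 and 11 had one in Bry, Hd1_loxlox and Hd2lox, with Flt1, Efnb2, Ephb4 and Sox18 in all 3 lists and Nrp1, Nrp2, Plvap and Nos3 in Bry and Hd1_loxlox only. Blood cell genes counted 3, 5 and 1 of 26 in the 3 lines and cardiac and smooth muscle genes 2, 3 and 2 of 17, below the shares of all coding genes. Mesenchymal genes counted 5, 7 and 4 of 16 and pluripotency genes 6, 5 and 4 of 18, or 22.2 to 43.8% over both groups and the 3 lines. Pou5f1 and Nanog, which define the ES cell state, had no start peak in any list, nor had Ptprc, the pan-blood antigen CD45.

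TGF-beta signalling genes were marked in similar numbers in the 3 lines and above the background share, as were the BMP, Notch and Wnt signalling genes. Of 40 genes 17 (42.5%) were in all 3 lists, and the Bry and Hd1_loxlox lists each marked 24 and the Hd2lox list 26. Over the first 50% of each list the counts were 20, 18 and 24. The share in all 3 lists was higher in the other signalling lists, at 52.4% for BMP, 50% for Notch and 51.6% for Wnt. The 26 TGF-beta genes with a promoter sequence held a median of 24 CpG, against 13 at all starts. Starts with 20 to 24 CpG, described below, also had peaks more often than the background in each line. Whether TGF-beta genes were marked beyond their CpG content was not tested. The ligand gene Tgfb1 was in all 3, with peaks of 3525, 4031 and 1256 bp in Bry, Hd1_loxlox and Hd2lox. The Hd2lox peak was again the narrowest. The receptor gene Tgfbr1 had peaks of 2291, 1771 and 1316 bp and Tgfbr2 of 1663, 1324 and 1356 bp. Smad3, the receptor-activated transducer, had peaks of 2591, 1443 and 3179 bp, here widest in Hd2lox. Smad4, the shared partner, Smad7, the inhibitory Smad, the corepressors Ski and Skil and the ubiquitin ligases Smurf1 and Smurf2 were in all 3 lists too.

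Another 7 members were in 2 lists. The coreceptor Tgfbr3, the corepressor Tgif1 and Ccn2, a matrix protein induced by TGF-beta, were in Bry and Hd1_loxlox. The transducer Smad2 and Zfyve9, which anchors Smads at the receptor, were in Bry and Hd2lox, and Lrrc32 and Pmepa1 in Hd1_loxlox and Hd2lox. Ltbp2 and Strap were in Hd1_loxlox alone, Tgfb2 and Thbs1 in Bry alone, and Ltbp3, Ltbp4, Inhbb, Fst and Acvr1c in Hd2lox alone, among them the latent TGF-beta binding proteins and the activin antagonist follistatin. The endothelial receptors Acvrl1 and Eng and the ligands Tgfb3, Inhba and Nodal had no start peak in any list, although Bry had a 2160 bp peak near Acvrl1 outside coding genes. Among 17 members in all 3 lists the Hd2lox peak was the narrowest in 10 and the widest in 2. Over the 3277 genes in all 3 lists it was the narrowest in 43.5% and the widest in 27.8%.

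BMP signalling genes counted 15, 17 and 13 of 21 in Bry, Hd1_loxlox and Hd2lox. Smad6, the inhibitory Smad of the BMP branch, had start peaks of 5456 bp in Bry and 7263 bp in Hd1_loxlox against 1971 bp in Hd2lox. The BMP targets Id1 and Id3 were in Bry and Hd1_loxlox and Id2 in Bry alone, while Id4 was in all 3 lists. Notch signalling genes counted 11, 14 and 13 of 18, with Notch1, Notch2, Jag1, Jag2 and Rbpj in all 3. The Notch target Hes1 had peaks of 3892 and 4823 bp in Bry and Hd1_loxlox, and in Hd2lox peaks of 1823 and 958 bp with a gap between them. Wnt signalling genes counted 23 of 31 in each line.

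Genes of the deacetylase complexes were themselves widely marked. Of 39 members of the Sin3, NuRD, CoREST and related complexes, 30 in Bry, 31 in Hd1_loxlox and 27 in Hd2lox had a start peak, and 21 were in all 3 lists. Hdac2 carried start peaks of 2302, 1784 and 2187 bp. Hdac1, for which the reference gives outer gene ends but no start, had a peak at such an end in Hd1_loxlox alone (chr4:129541682-129542922). The scaffolds Sin3a and Sin3b and the NuRD remodeller Chd4 were in Bry and Hd1_loxlox, Chd3 in Hd1_loxlox and Hd2lox, and Chd5, Mta1 and Mta3 in Hd2lox alone. Polycomb genes, which encode the repressive PRC1 and PRC2 complexes, counted 22, 20 and 21 of 26, and bromodomain readers of histone acetylation 12, 10 and 11 of 13. Ezh2, the PRC2 methyltransferase, had peaks of 1991, 2300 and 1244 bp.

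DNA replication and glycolysis genes showed the widest gaps between Hd2lox and the other lines among the 37 lists over whole lists. Hd2lox minus the mean of the others was -67.1 percentage points for DNA replication and -63.9 for glycolysis, and in the first 50% of each list -35.7 and -52.8. Of 35 genes 28 had a start peak in Bry, 21 in Hd1_loxlox and 1 in Hd2lox, the polymerase gene Pole. The helicase subunits Mcm5 and Mcm7, the loaders Cdc6 and Cdt1, the helicase cofactors Gins2, Gins3 and Gins4, the origin binders Orc1 and Orc4, and the flap nuclease Fen1 were in Bry and Hd1_loxlox. Mcm2, Mcm3 and Mcm6 were in Bry alone. Over the first 50% of each list the counts were 15, 10 and 0. Glycolysis genes gave 14, 13 and 2 of 18, where the 2 Hd2lox genes were the glucose transporters Slc2a1 and Slc2a3 and none of the enzymes. In the first 50% glycolysis genes counted 10, 11 and 1. Proteasome genes gave 26, 26 and 4 of 39, and 12, 12 and 3 over the first 50%.

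Other housekeeping groups had fewer members in Hd2lox too. Cytosolic ribosomal protein genes counted 57, 57 and 16 of 89 in Bry, Hd1_loxlox and Hd2lox, mitochondrial ribosomal protein genes 42, 43 and 8 of 78 and subunits of respiratory complex I 17, 16 and 5 of 41. In the first 50% of each list the 3 groups gave 31, 33 and 7, then 19, 22 and 6, and for complex I 4, 4 and 1. In the wider 50% of each list complex I showed no gap, with Hd2lox minus the mean of the others at 0 percentage points. Cholesterol synthesis genes counted 14, 18 and 5 of 24, where Hmgcs1, an early enzyme, was in Hd1_loxlox alone. Cell cycle genes counted 30, 27 and 19 of 38. Within that list E2f1 to E2f8 and Rb1 were in all 3 lists, whereas the mitotic genes Cdk1, Plk1 and Bub1 were in Bry and Hd1_loxlox. Replication-dependent histone genes, which lie in clusters, were unlike the rest. Of 62 such genes Bry marked 21, Hd1_loxlox 3 and Hd2lox 2, with 18 in Bry alone. Histone genes have near-identical copies, so where their reads were placed is uncertain.

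Immediate early genes, which respond within minutes to growth factors or stress, counted 21, 22 and 9 of 25, and over the first 50% of each list 15, 16 and 5. Fos, Fosb, Junb, Ier2, Atf3, Myc and Nr4a1 were in Bry and Hd1_loxlox, and Jun, Jund, Egr1 and Dusp1 in all 3 lists. Some also stood high among the 2058 genes marked in Bry and Hd1_loxlox with no Hd2lox peak within 5 kb. By width percentile within each list, taking the lower of the pair, the leading 10 were Gadd45g, Dusp4, Lin28a, Mycn, Junb, Fli1, Ier2, Hexim1, Myc and Nrp1. Junb, an AP-1 subunit, had peaks of 4233 bp in Bry and 3665 bp in Hd1_loxlox, which stood 0.117% and 0.254% of the way down their lists. Myc, the growth regulator, had peaks of 3075 and 5694 bp. Dusp4, a MAP kinase phosphatase, had peaks of 5489 and 4436 bp. For these genes absence from Hd2lox was part of how they were picked.

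Developmental transcription factor genes were more often marked in Hd2lox. Of 39 Hox genes 1 had a Bry start peak, 3 one of Hd1_loxlox and 14 one of Hd2lox, and 12 were in Hd2lox alone, among them Hoxa5, Hoxa10, Hoxb4, Hoxb9 and Hoxd13. Over the first 50% of each list the counts were 1, 1 and 8. Of 119 genes of the Fox, Sox, Pax, Nkx, Lhx, Dlx, Tbx and related families, a list chosen after values were seen, 39 were marked in Bry, 44 in Hd1_loxlox and 60 in Hd2lox. The 21 in Hd2lox alone included Sox2, Sox10, Pax2 and Six2. Of 914 genes with a start peak in Hd2lox and no peak of the other lines within 5 kb, those with the widest peaks were Foxd3 (3888 bp), Cdkn1c (3645 bp), Barhl1 (3561 bp), Tdrd6 (3171 bp), Dmrta2 (3129 bp), Angpt1 (3022 bp), Sox21 (2995 bp), Sp8 (2987 bp) and the neighbours Hes5 and Pank4, which share a peak of 2913 bp. Foxd3, Barhl1, Dmrta2, Sox21 and Sp8 encode transcription factors of the early nervous system or neural crest, and Cdkn1c a cyclin-dependent kinase inhibitor. Their places in the Hd2lox list ran from 14.0% (Sox21) to 68.7% (Barhl1), outside the last 25%. As these were picked for absence from the other lists, that absence is no result.

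The remaining lists gave the following counts for Bry, Hd1_loxlox and Hd2lox. Translation initiation factor genes counted 34, 39 and 20 of 48, heat shock and unfolded protein genes 14, 15 and 9 of 23, and p53 targets 11, 13 and 6 of 19. Histone deacetylases of classes I, IIa, IIb and IV counted 6, 6 and 4 of 11, sirtuins 4, 3 and 2 of 7, and histone acetyltransferases 10, 9 and 8 of 13. Interferon response genes counted 5, 4 and 2 of 24 and zinc finger genes of the Zfp series 139, 123 and 89 of 400. Neural and endoderm genes counted 4, 8 and 8 of 18. Olfactory receptor genes (1110) and keratin and keratin-associated genes (110), tissue-restricted families, had no start peak in Bry or Hd1_loxlox and 2 each in Hd2lox.

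Genes with most regions shared by all 3 lists, counted in the gene and 5 kb on either side, were Gse1, Ssbp4, Nol4l, Ppm1n, Gatad2a, Usp49 and Gm20517 with 3 regions each, and Tnrc18, Zfpm1 and Atp5d, which had the greatest covered length among 144 genes with 2. Usp49 lies within Gm20517, and their 3 regions, covering 5739 bp, are the same. Gatad2a encodes a NuRD subunit and Zfpm1 the GATA cofactor FOG-1, which binds NuRD. Gse1 had widest start peaks of 4894, 6365 and 3373 bp in Bry, Hd1_loxlox and Hd2lox, all within the first 1.42% of their lists. These were not all at 1 place. The Bry peak (chr8:120486224-120491117) lay apart from the overlapping peaks of Hd1_loxlox (chr8:120534682-120541046) and Hd2lox (chr8:120535279-120538651). Zfpm1 had peaks of 4655, 3361 and 1322 bp. Gm20517 had no start peak in Hd2lox and Atp5d had one in Bry only, as their shared regions lay elsewhere in or near the gene.

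Promoter sequence tracked the pattern of presence. Of 21263 annotated starts the 300 bases from 250 before to 50 after the start held a median of 13 CpG. The median was 30 at starts in all 3 lists, 22 in Bry and Hd1_loxlox only, 25 in Hd2lox only and 5 at starts in no list. At starts with 20 to 24 CpG 53% had a peak in Bry, 52.3% in Hd1_loxlox and 29% in Hd2lox. At starts with 35 CpG or more the order was reversed, with 73.8%, 76.0% and 86.7%.

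CCGGAAG, on either strand, was in 11.6% of all starts. It was in 27.8% of starts in Bry and Hd1_loxlox only (26.0 to 29.7%), 25.4% in Bry only, 21.3% in Hd1_loxlox only, 16.3% in all 3 lists and 6.00% in Hd2lox only (4.68 to 7.67%). Starts in no list held it in 6.14%. At a matched 20 to 24 CpG, starts with these letters had a Bry peak in 61.9%, an Hd1_loxlox peak in 59.5% and an Hd2lox peak in 19.7% of cases, and starts without them in 50.5%, 50.2% and 31.6%. The letters thus went with more peaks in 2 lines and fewer in Hd2lox. Over the first 50% of each list the same CpG class gave 32.2%, 28.4% and 11% with the letters and 27.1%, 26.4% and 18% without. Of 12 gene lists with Hd2lox 25 percentage points or more below the mean of the others, 5 held the letters more often than the 12.3% of all genes with a promoter sequence and 7 did not. The letters were in 41.4% of DNA replication genes, which include Orc1 and Rfc3 shown above, 36.2% of mitochondrial ribosomal, 35.3% of cytosolic ribosomal, 31.6% of translation initiation and 31.2% of proteasome genes, among them Psma6. In the 7 others, the immediate early, glycolysis, p53, haemogenic endothelium, cell cycle, cholesterol and complex I lists, they were in 5.26 to 11.4%. GGGCGG, the core of SP factor sites, was in 46.2% of all starts, 79.9% of those in all 3 lists, 66.2% in Bry and Hd1_loxlox only and 73.7% in Hd2lox only. Starts with another start on the opposite strand within 1000 bp made up 27.4% of those in Bry and Hd1_loxlox only, 12.7% of those in all 3 lists, 2.75% in Hd2lox only and 7.97% of all. Whether any of these factors was bound was not measured.

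**Figure D4:**
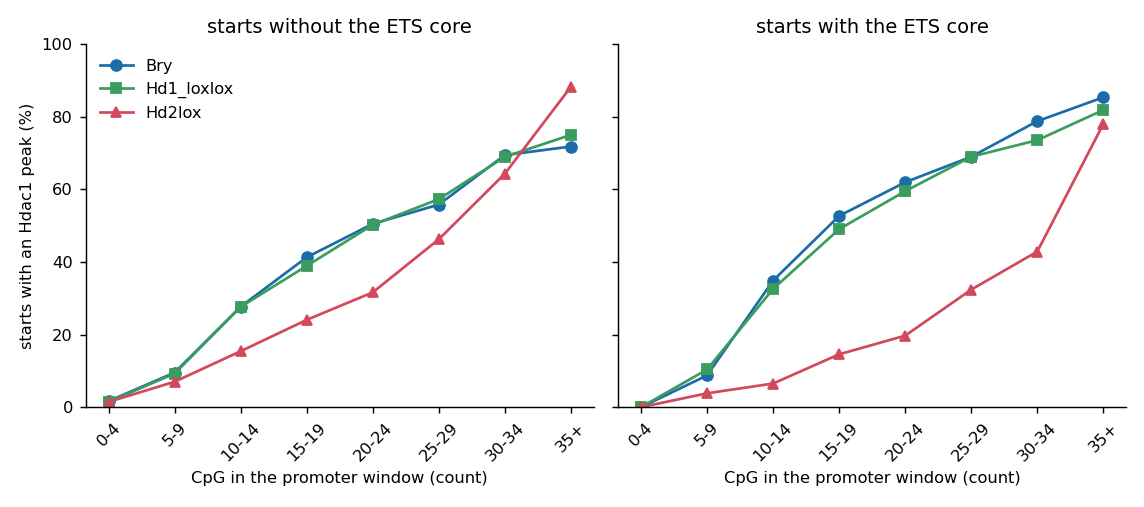
Share of annotated starts with an Hdac1 peak (percent, y axis) by the number of CpG in the promoter window (x axis), for starts without the ETS core letters (left) and with them (right), in each line. At 20 to 24 CpG with the letters, Bry and Hd1_loxlox stood at 61.9% and 59.5% and Hd2lox at 19.7%.

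The Runx1 arrangement of a marked and an unmarked start was shared by other genes. Of 1032 genes whose outermost annotated starts lay over 5000 bp apart, Bry marked only the first start of 296 and only the last of 90, Hd1_loxlox 310 and 92, and Hd2lox 307 and 90. In 168 genes the first start was in all 3 lists and the last in none, with median CpG counts of 33 and 4. In 35 genes, Runx1 among them, it was the reverse, with medians of 8 and 29. The counts for first and last starts were thus near each other in the 3 lines.

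By count of genes with a peak, some classes of non-coding genes and pseudogenes separated the lines and others did not. Only regions away from coding starts were counted, against all annotated genes of a class. A gene whose region touched a coding start thus counted as without a peak. Regions away from coding starts numbered 682 in Bry alone, 425 in Hd1_loxlox alone and 2002 in Hd2lox alone, of which 72, 55 and 91 held lncRNA genes. The counts below cover all regions of each list, not only these. Peaks away from coding starts numbered 765 inside genes and 571 outside in Bry. In Hd1_loxlox these were 665 and 459, and in Hd2lox 1318 and 1115. Among 12727 lncRNA genes 207, 204 and 175 had a peak in Bry, Hd1_loxlox and Hd2lox, in 197, 195 and 170 regions. Relative to its greater number of peaks away from starts, Hd2lox thus had fewer at lncRNA genes. Of 408 tRNA genes 72 had a peak in Bry, 72 in Hd1_loxlox and 3 in Hd2lox, where many tRNA genes share a region, as 39, 39 and 3 regions held them. Of 1340 snoRNA genes 20, 25 and 0 had one. Of 1004 snRNA genes 23, 8 and 4 had one, so Hd1_loxlox was nearer to Hd2lox, and of 1228 miRNA genes 28, 39 and 31. Of 9944 pseudogenes 8, 7 and 69 had one. Reads from repeated copies of such genes cannot be placed with certainty.

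Chromosomes 8, 11 and 16 stood out in 2 lines. A start peak was at 51.5% of coding genes of chromosome 8 in Bry, 54.2% in Hd1_loxlox and 29.9% in Hd2lox. On chromosome 11 the shares were 44.2%, 54.6% and 28.3%, and on chromosome 16 34.8%, 44.2% and 25.6%. The 16 other autosomes ranged from 24.0 to 39.3% in Bry, 23.3 to 38.9% in Hd1_loxlox and 17.1 to 33.4% in Hd2lox. Chromosomes 8 and 11 in Bry and 8, 11 and 16 in Hd1_loxlox thus lay outside the range of the others, and none of the 3 did in Hd2lox. These chromosomes were singled out after their values were seen. DNA copy number was not tested, and Ier2, Junb, Dusp4, Lyl1 and Nrp1 lie on chromosome 8. Without chromosomes 8, 11 and 16 the Jaccard indices were 0.568, 0.327 and 0.352 and the share at starts in Hd2lox minus the mean of the others was -18.4 percentage points. Chromosome X held 25 Bry, 17 Hd1_loxlox and 111 Hd2lox peaks, and chromosome Y 8, 8 and 0.

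**Figure D5:**
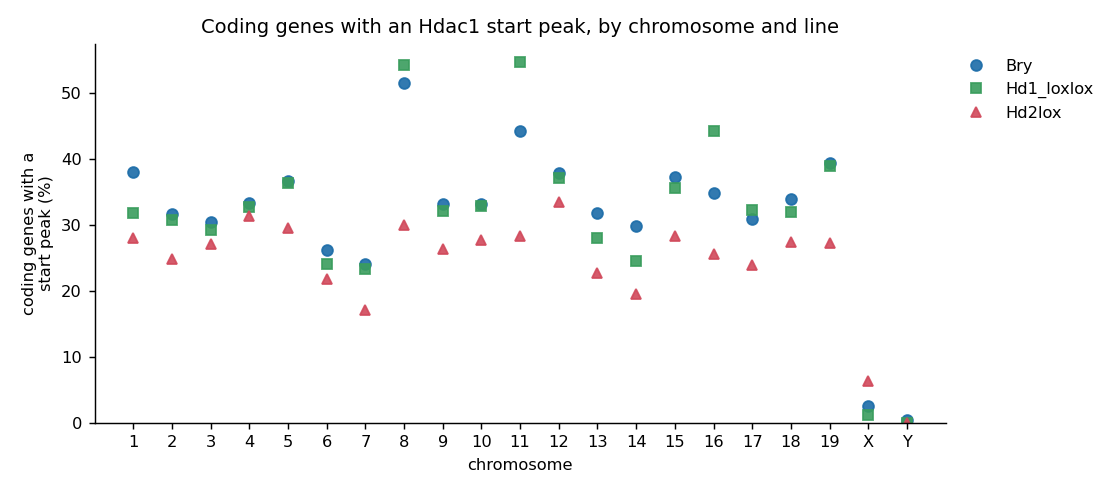
Coding genes with an Hdac1 start peak (percent, y axis) on each chromosome (x axis) in each line. Bry and Hd1_loxlox reach 51.5% and 54.2% on chromosome 8, where Hd2lox is at 29.9%.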

How the data were processed

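ChIP-seq was done with an Hdac1 antibody in 3 ES-derived lines. Per the submitters' processing notes, the tools were bcl2fastq, Bowtie2 2.2.9, SAMtools 1.3.1 and MACS2 2.1.1.20160309, and the build was mm10. The authors deposited 1 list of peak positions per library; the sources used here give no threshold, peak mode or use of inputs. Genes and promoters came from RefSeq tables of GRCm38.p6, the same assembly. A start was the annotated one for 17492 protein-coding genes and either outer end for 4395 without a strand. Peaks were merged on 1 bp of overlap, and overlap code was tested on simulated data. Values were computed with Python 3.11.15, pandas 2.3.3 and scipy 1.17.1. Named genes were the 10 with most shared regions and the 10 with the widest peaks, by width percentile, in Bry and Hd1_loxlox but not near Hd2lox peaks. The 10 widest of Hd2lox alone and members of the 37 gene lists were named too. Members and lists were chosen with earlier results of these data known.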

Additional observations from a re-analysis of the deposited data

How the results depend on the processing

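The lead of the Bry and Hd1_loxlox pair in Jaccard index, 0.242 over all regions, was positive in each of 7 alternatives. It was 0.204 over base pairs, 0.181 with the wider 50% of each list, 0.208 at starts, 0.198 away from starts, 0.177 in the first 75% of each list and 0.170 in the first 50%. The share of peaks at starts, 78.4%, was 89.2% in the first 50% of each list and 75.1 to 83.8% with 1 line left out. The share in Hd2lox minus the mean of the other lines was -16.1 percentage points over whole lists and -0.446 in the first 50%, but -19.8 in the wider 50%. Regions of all 3 lists, 3213, numbered 1120 with the wider 50% and 1347 with the first 50%, and 3710 to 5541 regions were common to the remaining pair with 1 line left out, most without Hd2lox. Genes in all 3 lists, 3277, numbered 1167 and 1406 under the same settings and 3746 to 5660 with 1 line left out. Fewer peaks or lists enter these settings. Median width, 1432 bp, was 1584 bp in regions of all 3 lists, 1537 bp in the first 75% and 1682 bp in the first 50%. TGF-beta genes in all 3 lists, 17, numbered 12 to 17 in settings that kept the 3 lists. With 1 line left out, 19 to 20 were common to the remaining pair. A gap of 10 points or more between Hd2lox and the others was seen in 27 gene lists. It turned sign in 3 of 243 settings and moved beyond its counting error in 26. That error is wide in small lists, so some gaps that went to 0 in the first 50% did not count as moved. These were sirtuins (from -21.4 points), deacetylases (from -18.2) and mesenchymal genes (from -12.5). The count of 26 thus does not show that the other gaps held. Over all coding genes Hd2lox was lower too, at 24.7% against 32.4% and 32.3%, so a deficit near 10 points is partly background. The gap of complex I genes went from -28.0 to 0 points in the wider 50%, for translation initiation genes from -34.4 to -10.4 and for Zfp genes from -10.5 to -1.5 in the first 50%. Deacetylases turned to 6.25 points with genes of known strand only, and acetyltransferases to 3.85 points in the first 75% and the first 50%. The cause was not tested. No paired analysis was possible because each line gave 1 Hdac1 library and replicate numbers are names only. The settings by place in the list and without chromosomes 8, 11 and 16 were chosen after seeing the data.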
